A study of Mus musculus with 6 samples.

Results

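The path from progenitor to granule neuron in the adult dentate gyrus was followed through 10 genes: Eomes, Neurog2, Neurod1, Neurod4, Igfbpl1, Sox4, Sox11, Dcx, Prox1 and Calb2. They were chosen by name as markers of the lineage and are given in order, from the intermediate progenitor to the immature granule neuron. The 10 genes were found among the 37620 in the count files, and 10 of 10 were among the 15056 genes tested. The question was whether deletion of Klf9, a zinc finger transcription factor of the Krüppel-like family, went with a change in these mRNAs on ribosomes of the labelled cells.

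In the adult subgranular zone, quiescent radial glia-like stem cells (RGLs) divide to give intermediate progenitors, which become migrating neuroblasts and then granule neurons. Proneural transcription factors of the basic helix-loop-helix family start neuronal differentiation in the progenitors, SoxC factors follow, and cytoskeletal and calcium-binding proteins mark the young neurons. In bulk samples, fewer cells of a type and less RNA per cell cannot be told apart.

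Ribosome-bound mRNA was profiled with RiboTag in Gli1CreERT2:Rpl22HA f/+ mice of 2–3 months that carried either Klf9 +/+ (3 samples) or Klf9 f/f (3 samples). Both genotypes thus carried the tamoxifen-inducible Cre driver and the Cre-dependent HA-tagged ribosomal protein RPL22, and both received tamoxifen at 250 mg/kg in 3 injections given 12 hr apart. Tissue was taken 4 days after the last injection, and each sample pooled 6 dentate gyri from 3 mice. The driver acts in Gli1-expressing cells, which include RGLs and some astrocytes, and progeny born after recombination keep the tagged ribosomes, while cells born earlier from unlabelled stem cells do not.

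The samples carried 21594714 to 66343759 counts on genes. The sample titles place replicates 1 and 2 of each genotype in a library series named YTa22 and replicate 3 of each genotype in a series named YTa32. The titles do not say what separates the series, and YTa32 holds 1 sample of each genotype. Replicates are separate pools of mice numbered in accession order, so equal numbers do not pair samples, and p-values measure the spread between these pools. Klf9 itself stood at 200.9, 203.9 and 139.0 CPM (counts scaled to library size, here by TMM) in Klf9 +/+ and, in Klf9 f/f, at 114.3, 121.3 and 120.0 CPM. The targeted gene was thus lower without overlap, as were 1.35% of all genes tested, but still counted in all 3 Klf9 f/f samples. Its fitted log2 change was -0.59 (standard error 0.15, edgeR's quasi-likelihood test, unadjusted p = 0.0032, adjusted p = 0.844). Recombination removes exon 1 by the study's account, so counts over the whole gene do not measure the intact Klf9 mRNA left. Markers of the labelled cells were abundant, and the radial glia list (11 genes tested) summed to between 7547 and 11910 CPM. The mature granule neuron list (12 genes tested) summed to between 1001 and 1237 CPM, and the microglia list (8 genes tested) to between 86.2 and 119.5 CPM. The vascular and meningeal list (16 genes tested) summed to between 467.6 and 1667 CPM. The choroid plexus list (15 genes tested) ranged most widely, from 29.1 to 2806 CPM. No input sample was compared, so how much mRNA of untagged cells the samples held was not tested.

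The upstream sequences of the genes are shown because Krüppel-like factors bind GC boxes and CACCC elements, and because most of the genes moved together across samples. RefSeq start sites (GRCm38.p6, a later build than the mm9 of the counts) were matched for 8 of the 10 genes, all but Igfbpl1 and Calb2. In the 250 bases before the start, 6 of the 8 held CACCC on either strand, against 51.3% of all 27025 promoters, and 5 of the 8 held GGGCGG, against 33.0%. The windows of 3 contrasting genes are printed 5′ to 3′ on the strand of the gene, with CACCC and its complement GGGTG, and with GGGCGG and its complement CCGCCC, in capitals: Neurod4 (chr10:130280255-130280504, minus strand), which passed the test described below, Dcx (chrX:143933220-143933469, minus strand), which had the largest fitted difference, and Neurog2 (chr3:127632886-127633135, plus strand), whose level was nearly flat.
Neurod4: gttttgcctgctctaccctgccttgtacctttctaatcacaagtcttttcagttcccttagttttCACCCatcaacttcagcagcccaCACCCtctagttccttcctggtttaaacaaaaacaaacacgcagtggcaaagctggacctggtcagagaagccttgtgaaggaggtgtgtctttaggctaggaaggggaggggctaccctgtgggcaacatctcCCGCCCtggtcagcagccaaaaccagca
Dcx: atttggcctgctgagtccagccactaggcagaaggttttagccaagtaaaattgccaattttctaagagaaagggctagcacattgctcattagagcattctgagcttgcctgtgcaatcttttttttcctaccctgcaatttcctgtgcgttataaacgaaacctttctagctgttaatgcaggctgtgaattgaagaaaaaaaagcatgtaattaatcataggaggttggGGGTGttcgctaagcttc
Neurog2: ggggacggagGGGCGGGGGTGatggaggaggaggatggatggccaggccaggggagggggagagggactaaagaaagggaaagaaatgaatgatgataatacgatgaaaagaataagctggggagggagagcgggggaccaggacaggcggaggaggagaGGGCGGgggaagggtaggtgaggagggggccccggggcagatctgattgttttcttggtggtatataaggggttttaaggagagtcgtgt
The Neurod4 window held CACCC at 2 places and GGGCGG at 1. The Dcx window held CACCC at 1 place and no GGGCGG. The window of Neurog2, flat in its level, held CACCC at 1 place and GGGCGG at 2. Of the windows not printed, those of Eomes and Sox4 held neither. CACCC and GGGCGG stood at 2 and 4 places in Neurod1, 2 and 2 in Sox11, and 3 and 2 in Prox1. The 3 printed genes were picked by their values, and whether these letters go with the difference was not tested. A match of letters is not a binding site, and no binding was measured. The E-box letters CANNTG, which basic helix-loop-helix factors bind, stood in 4 of the 8 windows, against 66.1% of all promoters.

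Each of the 10 genes had a fitted level below Klf9 +/+ in Klf9 f/f, against 49.8% of all genes tested, and their median log2 fold change was -0.33, against 0.0008 for all genes tested. At 1.2-fold and an unadjusted p under 0.05, 1 of the 10 was called lower, Neurod4, where 2.50% of all genes tested were, and 0 of the 10 were called higher, where 1.82% were. No gene of the 10 passed an adjusted p under 0.05 in edgeR's quasi-likelihood test, nor did any gene tested (0.00%), with 650 genes (4.32%) at an unadjusted p under 0.05 and 39 genes, none of them among the 10, at an adjusted p under 0.05 by DESeq2. The genes share the same 6 samples and a lineage, so their common sign is not 10 separate observations. With no filter on low counts, 6 of the 10 were called lower, where 1439 of 25153 genes (5.72%) were called in either direction, and 4 passed an adjusted p under 0.05, as did 334 genes in all. In that fit the standard error was nearly the same for the steady Neurog2 (0.159) and the widely spread Neurod1 (0.163). With the filter these errors were 0.146 and 0.498, so the calls without it hardly reflect each gene's own spread among replicates. Within YTa22, 9 of the 10 had the lower mean in Klf9 f/f, the median of the log2 differences being -0.62. Within YTa32, 5 of the 10 were lower, with a median of 0.006. Neurod4 was the only gene of the 10 whose Klf9 f/f samples lay below the Klf9 +/+ samples within each series, an order that 5.53% of all genes tested had. None of the 10 had the opposite order, which 7.78% of all genes tested had.

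**Figure D1:**
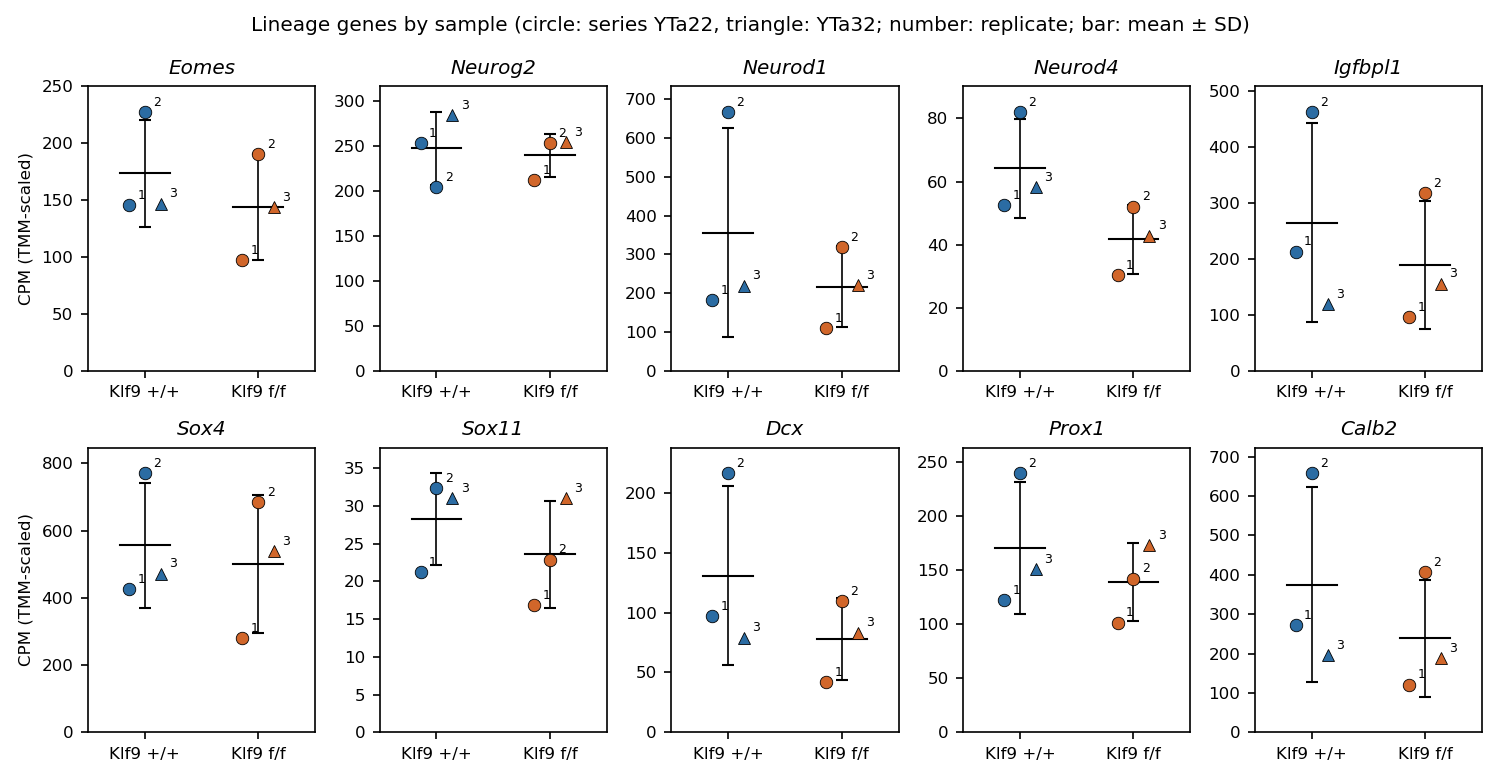
Level of each gene in TMM-scaled CPM (vertical axes, from 0) in 3 Klf9 +/+ samples (blue) and 3 Klf9 f/f samples (orange), with circles for series YTa22, triangles for YTa32, the replicate number beside each point and the mean ± SD as bars. Klf9 +/+ replicate 2 is the highest of the 6 samples for all genes but Neurog2, and the genotypes do not overlap for Neurod4 alone.

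Eomes (ENSMUSG00000032446, mm9 chromosome 9, 118387330 to 118395250, plus strand) encodes TBR2, the T-box factor that defines intermediate progenitors. Its level was 145.8, 227.4 and 146.9 CPM in Klf9 +/+ replicates 1, 2 and 3, and 97.1, 190.2 and 143.7 CPM in Klf9 f/f. The replicate 3 samples were nearly equal, and the genotypes overlapped. The fitted log2 change was -0.26 (standard error 0.26), and its 95% interval ran from -0.84 to 0.32 (unadjusted p = 0.332, edgeR's quasi-likelihood test). Neurog2 (ENSMUSG00000027967, chromosome 3, 127336054 to 127338549, plus strand), a proneural factor that acts upstream of the NeuroD genes, was the steadiest gene of the 10. It stood at 252.9, 204.1 and 284.4 CPM in Klf9 +/+ and, in Klf9 f/f, at 211.9, 252.6 and 253.7 CPM. Its highest sample in YTa22 was only 1.24 times its lowest, and 69.1% of the 10383 genes with a mean of at least 10 CPM spread more widely than that. Its log2 fold change was -0.04 (standard error 0.15, 95% interval -0.37 to 0.29), which leaves room for a modest difference in either direction.

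Neurod1 (ENSMUSG00000034701, chromosome 2, 79292678 to 79296908, minus strand) is required for adult-born granule neurons to mature and survive. It stood at 182.7, 666.7 and 219.3 CPM in Klf9 +/+ and, in Klf9 f/f, at 110.4, 317.8 and 221.3 CPM. The high sample, Klf9 +/+ replicate 2, was 6.04 times the low sample, Klf9 f/f replicate 1, and only 0.193% of genes of at least 10 CPM spread more widely in YTa22. The fitted log2 change was -0.66 (standard error 0.50). Replicates of the same genotype in YTa22 differed by 1.87 (Klf9 +/+) and 1.52 (Klf9 f/f) on the log2 scale, more than the genotypes did (-0.90), and in YTa32 the genotype difference was 0.01. The exons of Neurod1 share 7.4% of their bases with Cerkl on the same strand and 5.6% with an opposite-strand lincRNA, Gm17325.

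Neurod4 (ENSMUSG00000048015, chromosome 10, 129705209 to 129717296, minus strand), a basic helix-loop-helix factor of neuronal differentiation, was the gene of the 10 whose genotypes did not overlap. Its level was 52.4, 82.1 and 58.3 CPM in Klf9 +/+ and 30.3, 52.0 and 42.8 CPM in Klf9 f/f. The 3 Klf9 f/f samples were the 3 lowest, as for 1.35% of all genes tested, but Klf9 +/+ replicate 1 and Klf9 f/f replicate 2 were separated by less than 1 CPM, and with scaling by library size alone their order turned. The fitted log2 change was -0.62 (standard error 0.23), and its 95% interval ran from -1.15 to -0.10 (unadjusted p = 0.0246 and Benjamini-Hochberg adjusted p = 1.00 over all genes tested, edgeR's quasi-likelihood test). The difference was -0.72 in YTa22 and -0.45 in YTa32, and the exact two-sided permutation test over the 6 samples gave p = 0.1, the smallest that 3 against 3 allow. The call was lost without Klf9 f/f replicate 1 (-0.40, edgeR, unadjusted p = 0.0794) and without Klf9 +/+ replicate 2 (-0.39, edgeR, unadjusted p = 0.123). Neurod4 is a gene that the study itself singled out from these samples, so its call is not independent evidence of its direction.

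Igfbpl1 (ENSMUSG00000035551, chromosome 4, 45822340 to 45839795, minus strand), a secreted protein related to the insulin-like growth factor binding proteins and a neuroblast marker, stood at 212.9, 462.3 and 119.2 CPM in Klf9 +/+ and, in Klf9 f/f, at 96.1, 317.1 and 155.6 CPM. Its genotype difference changed sign between the series, from -0.85 in YTa22 to 0.39 in YTa32. The fit over both gave -0.35 with a standard error of 0.44. Sox4 (ENSMUSG00000076431, chromosome 13, 29040788 to 29045582, minus strand) and Sox11 (ENSMUSG00000063632, chromosome 12, 28025562 to 28027574, minus strand) encode SoxC factors that switch on neuronal genes in committed cells. Sox4 was 426.0, 770.5 and 472.7 CPM in Klf9 +/+ and 280.1, 686.1 and 539.3 CPM in Klf9 f/f. Sox11 was 21.3, 32.4 and 31.1 CPM in Klf9 +/+ and 16.9, 22.9 and 31.0 CPM in Klf9 f/f. Both genes overlapped between genotypes, with log2 fold changes of -0.14 (standard error 0.33) and -0.29 (standard error 0.21). In YTa32 Sox4 was higher in Klf9 f/f by 0.19 and Sox11 differed by -0.002. The counting ignored strand and 54.6% of Sox4 exon bases lie under an opposite-strand lincRNA, Gm17419, so the level of Sox4 is uncertain.

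Dcx (ENSMUSG00000031285, chromosome X, 140290385 to 140367854, minus strand) encodes doublecortin, the microtubule-binding protein of migrating neuroblasts, and had the largest fitted difference. It stood at 97.1, 216.1 and 79.1 CPM in Klf9 +/+ and, in Klf9 f/f, at 41.8, 109.5 and 83.2 CPM. Klf9 f/f replicate 2 lay above Klf9 +/+ replicates 1 and 3, and Klf9 +/+ replicate 3 lay below Klf9 f/f replicate 3. The fitted log2 change was -0.68 (standard error 0.41), and its 95% interval ran from -1.60 to 0.24 (unadjusted p = 0.128, edgeR's quasi-likelihood test). It was -1.10 within YTa22 and 0.07 within YTa32. Dcx passed the unadjusted threshold when a YTa32 sample was left out (-1.05 without Klf9 f/f replicate 3 and -1.06 without Klf9 +/+ replicate 3), where the partner in YTa32 no longer informs the genotype.

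Prox1 (ENSMUSG00000010175, chromosome 1, 191945660 to 191994559, minus strand), the homeobox factor of granule neuron identity, is kept on in mature granule neurons. It stood at 122.4, 239.9 and 151.0 CPM in Klf9 +/+ and, in Klf9 f/f, at 101.7, 142.4 and 173.6 CPM. After Klf9 +/+ replicate 2 the highest sample was Klf9 f/f replicate 3, and the fitted log2 change was -0.32 (standard error 0.27). Calb2 (ENSMUSG00000003657, chromosome 8, 112661402 to 112692110, minus strand) encodes calretinin, a calcium-binding protein that granule neurons carry for a short time after birth. It stood at 271.5, 657.4 and 197.0 CPM in Klf9 +/+ and, in Klf9 f/f, at 121.3, 406.5 and 188.5 CPM. The fitted log2 change was -0.57 (standard error 0.44), and the genotypes overlapped, since Klf9 f/f replicate 2 exceeded Klf9 +/+ replicates 1 and 3.

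**Figure D2:**
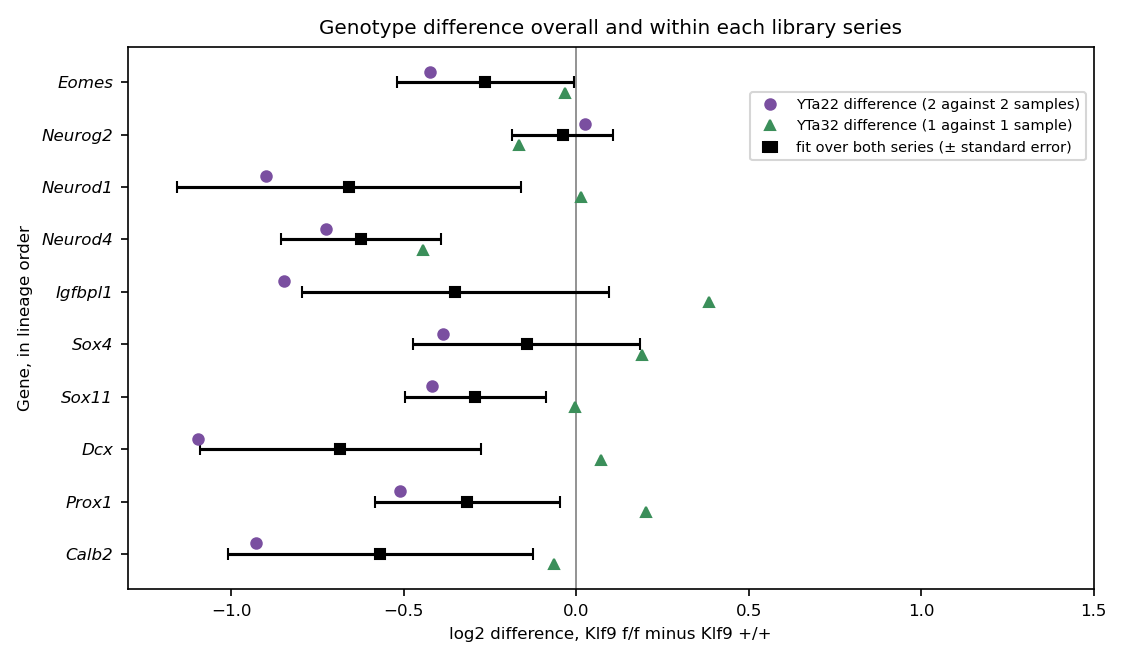
Log2 difference between Klf9 f/f and Klf9 +/+ (horizontal axis, 0 meaning equal) for each gene in lineage order, as the fit over both series with its standard error (squares), within YTa22 (circles) and within YTa32 (triangles). The YTa22 differences reach -1.10 for Dcx, while in YTa32 the difference farthest from 0 is that of Neurod4, at -0.45.

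The 10 genes spread widely among replicates in YTa22. Klf9 f/f replicate 1 was the lowest and Klf9 +/+ replicate 2 the highest of the 4 samples for 9 of the 10 genes, all but Neurog2, an order that 9.40% of all genes tested had. This order was noticed in the values and then counted. The ratio of the highest to the lowest sample had a median of 2.73 over the 10 genes, against 1.33 over the 10383 genes with a mean of at least 10 CPM. It was 5.42 for Calb2, 5.17 for Dcx and 4.81 for Igfbpl1. Replicates of the same genotype differed by a median of 0.91 (Klf9 +/+) and 1.13 (Klf9 f/f) on the log2 scale. The Klf9 +/+ replicate difference exceeded the YTa22 genotype difference for 9 genes, all but Neurod4, and the Klf9 f/f replicate difference exceeded it for 9 genes, all but Prox1. Summed over the 10 genes, the samples held 1785, 3559 and 1759 CPM in Klf9 +/+ and 1108, 2497 and 1833 CPM in Klf9 f/f. The sums overlapped between genotypes, and the replicate 3 sums lay close together.

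**Figure D3:**
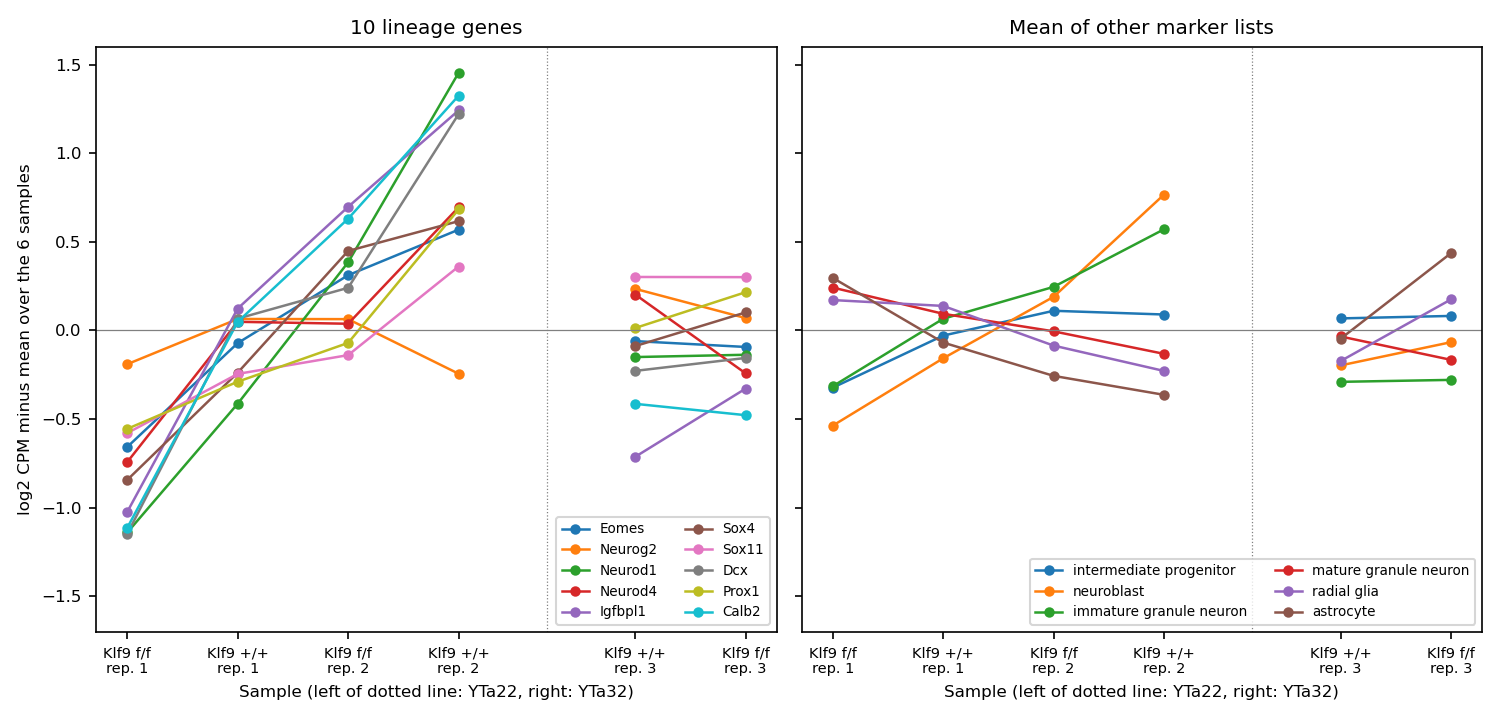
Log2 CPM of each of the 10 genes (left) and mean log2 CPM of 6 other marker lists (right), minus the mean over the 6 samples (vertical axis), with samples along the horizontal axis by series and, in YTa22, in the order in which most of the 10 genes increase. The 10 genes other than Neurog2 climb from Klf9 f/f replicate 1 to Klf9 +/+ replicate 2, as do the neuroblast and immature granule neuron lists. Across the same samples the astrocyte list runs from 8.48 down to 7.82. The radial glia list (8.60 to 8.20) and the mature granule neuron list (5.52 to 5.15) fall too.

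A test of whether the genotype difference itself differed between the series found no gene of the 10 at an unadjusted p under 0.05 (1.53% of all genes tested, and 0.00% at an adjusted p under 0.05, edgeR's quasi-likelihood test). The interaction was positive, meaning a less negative difference in YTa32, for 9 of the 10, and was largest for Dcx at 1.12 with a standard error of 0.75 (unadjusted p = 0.161, edgeR). With 1 sample of each genotype in YTa32, this test rests on the spread within YTa22. Between the series as a whole, 29.5% of all genes tested differed at an adjusted p under 0.05, but none of the 10 did, the smallest adjusted p being 0.154 for Sox11 (edgeR, Benjamini-Hochberg).

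Leaving out samples in turn moved the 10 genes other than Neurog2 together. Neurog2 went the other way in some fits, as from -0.04 to -0.14 without Klf9 +/+ replicate 2, where the others rose. Without Klf9 f/f replicate 1, 6 of the 10 stayed lower in Klf9 f/f and 0 were called, where 5.65% of genes were called in either direction. The same counts held without Klf9 +/+ replicate 2, where 4.84% of genes were called. With both left out, an alternative chosen after the values were seen, 8 of the 10 had the higher fitted level in Klf9 f/f, 2 of them called (8.01% of genes were called in either direction in that fit), and the median log2 fold change was 0.18. Neurod4 and Neurog2 kept a lower level there. Neurod4 was at -0.24 (edgeR, unadjusted p = 0.169).

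**Figure D4:**
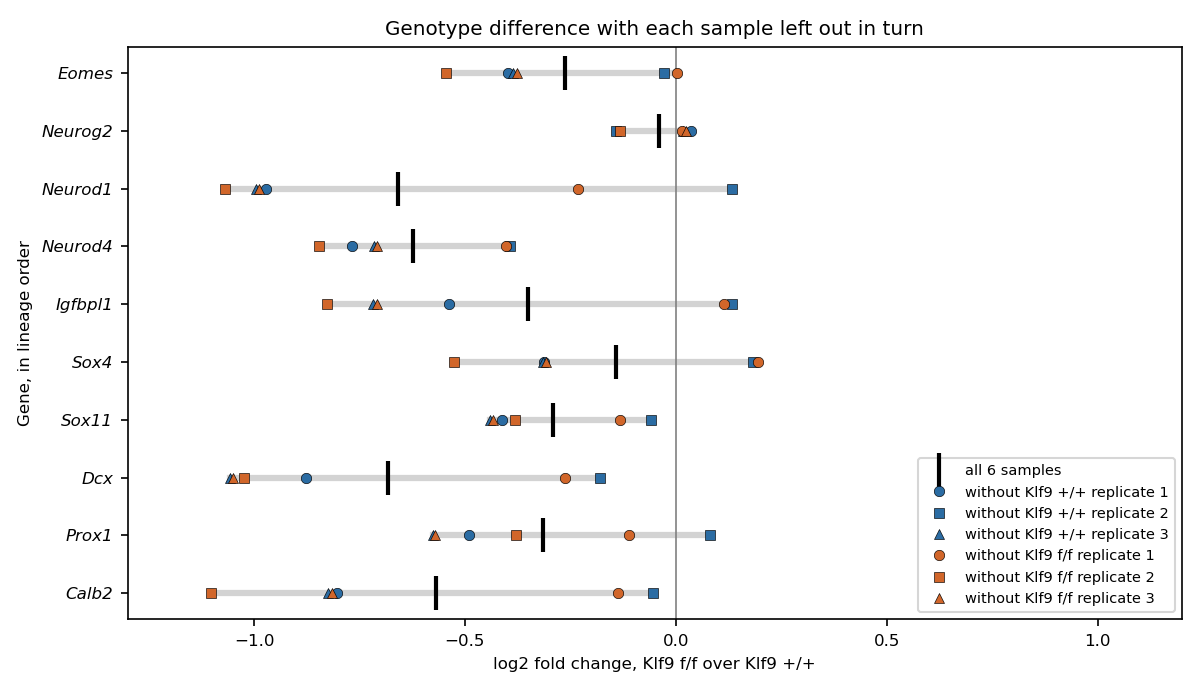
Fitted log2 fold change of each gene (horizontal axis) with all 6 samples (black bar) and with each sample left out in turn (blue for Klf9 +/+, orange for Klf9 f/f; circle, square and triangle for replicates 1, 2 and 3), the grey band spanning the 6 values. Neurod4 stays between -0.85 and -0.39, while Neurod1 spans -1.07 to 0.13.

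Per kb of annotated exon, the mean level over the 6 samples was highest for Calb2, at 176.3 ± 113.2 CPM per kb (SD, n = 6). Calb2 was the highest of the 10 in only 3 of the 6 samples. Sox4 followed at 110.4 ± 37.2, Neurog2 at 109.3 ± 13.5 and Neurod1 at 104.9 ± 72.6 CPM per kb. Igfbpl1 stood at 69.9 ± 43.0, Eomes at 38.2 ± 10.8 and Prox1 at 37.5 ± 11.7 CPM per kb. Each of these genes overlapped the next in its sample values. Neurod4 stood at 15.9 ± 5.17, Sox11 at 12.9 ± 3.20 and Dcx at 8.26 ± 4.68 CPM per kb. Prox1 and Neurod4 were the only neighbours in the order whose samples did not overlap, by a narrow margin (24.61 against 24.54 CPM per kb), and Eomes overlapped Neurod4. Sox4 moved to the top, at 242.8 ± 81.8 CPM per kb, when only exon bases that no other gene shares were used as its length. The order of the means did not follow the lineage, with the late marker Calb2 above the early marker Eomes and the neuroblast marker Dcx at the bottom.

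**Figure D5:**
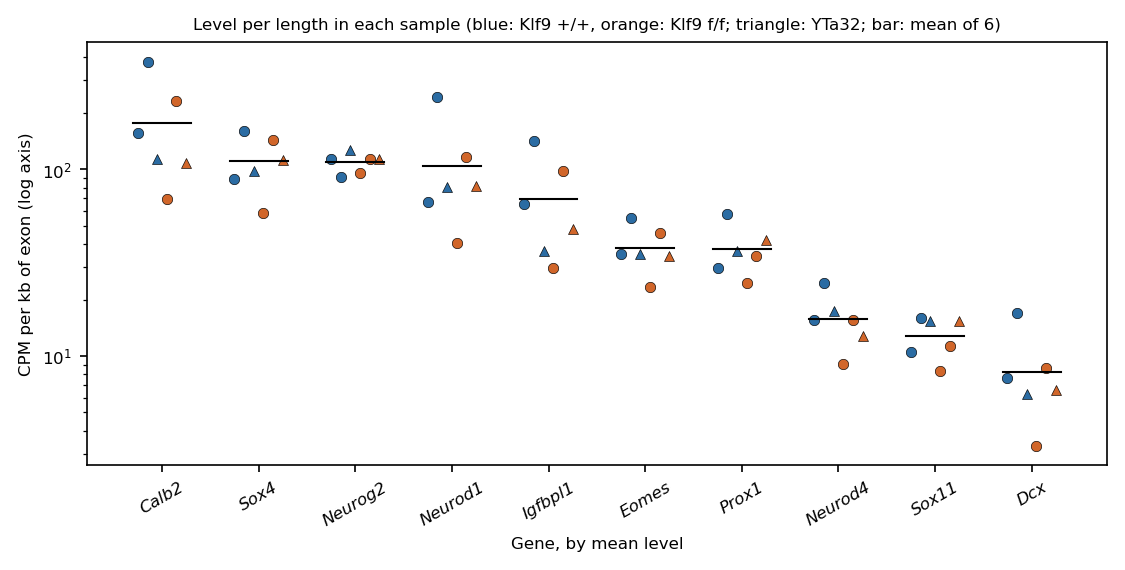
Level of each gene in CPM per kb of exon (vertical axis, log scale) in the 6 samples, genes ordered by mean (black bar), with blue for Klf9 +/+, orange for Klf9 f/f and triangles for YTa32. Calb2 has the highest mean and Dcx the lowest, and the samples of Prox1 and Neurod4 are separated by a narrow margin.

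Other genes of the same stages, taken from lists of lineage markers that hold none of the 10, shared the order of samples most often in neuroblasts. Of 18 neuroblast genes tested, 1 was called lower (2.50% of all genes tested) and 0 higher, so that the count of calls was near the background. A fitted level below Klf9 +/+ was found for 16 of the 18 (49.8% of all genes tested), and the median log2 fold change was -0.26. The called gene was Bhlhe22, a basic helix-loop-helix factor of postmitotic neurons, at 37.6, 64.0 and 54.6 CPM in Klf9 +/+ and 24.7, 32.6 and 48.1 CPM in Klf9 f/f (log2 fold change -0.62, standard error 0.23). Klf9 f/f replicate 1 was the lowest and Klf9 +/+ replicate 2 the highest of YTa22 for 13 of the 18. The mean log2 CPM of the list was 6.37, 7.30 and 6.33 in Klf9 +/+ and 5.99, 6.72 and 6.46 in Klf9 f/f, so that in YTa32 the Klf9 f/f sample was the higher.

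Of 11 intermediate progenitor genes tested, 1 was called lower (background 2.50%) and 0 higher, the median was -0.12 on the log2 scale and the same order of YTa22 samples held in 4. The called gene was Mfap4, which encodes a microfibril-associated extracellular protein and not a proneural factor, with a log2 fold change of -0.31 (standard error 0.13). Of 12 immature granule neuron genes tested, 0 were called, the median was -0.15 and the order held in 7. The most abundant gene of that list, Nnat, which encodes the small membrane protein neuronatin, stood at 2004, 2445 and 1459 CPM in Klf9 +/+ and, in Klf9 f/f, at 1525, 2443 and 1791 CPM. Of 12 mature granule neuron genes tested, 0 were called, the median was 0.06 and the order held in 0. The ratio of highest to lowest sample in YTa22 had a median of 2.31 in the neuroblast list, 1.96 in the immature granule neuron list, 1.48 in the intermediate progenitor list and 1.46 in the mature granule neuron list. The spread was thus widest in the neuroblast genes and narrower in the stages before and after, without a test of that order.

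Calb2 also marks other cells of the hippocampus. The 4 Cajal-Retzius genes tested summed to between 16.1 and 27.2 CPM, the 5 mossy cell genes to between 48.7 and 64.0 CPM and the 10 GABA interneuron genes to between 117.5 and 148.2 CPM. None of these genes was called in either direction. In YTa22 the ratio of highest to lowest sample had a median of 2.32 in the Cajal-Retzius list and 1.74 in the mossy cell list. Both lists include genes near the floor, such as Lhx1 at 0.20 to 1.27 CPM in YTa22 in the Cajal-Retzius list. The YTa22 order that Calb2 and most of the 10 genes had was found for 0 genes of either list (9.40% of all genes tested). Markers of GABAergic neuroblasts, which carry Dcx and Sox11 too, summed to only 7.53 to 12.2 CPM over 4 genes.

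Markers of other cell types differed between the genotypes beside these results. The 15 choroid plexus genes were called lower in Klf9 f/f in 15 of 15 (background 2.50%), with a summed level of 151.1 to 2806 CPM in Klf9 +/+ and 29.1 to 429.0 CPM in Klf9 f/f. Ttr, the transthyretin gene that defines this tissue, stood at 108.9, 655.4 and 2273 CPM in Klf9 +/+ and, in Klf9 f/f, at 4.58, 7.08 and 342.2 CPM. Within YTa22, Ttr was lowest in Klf9 f/f replicate 1 and highest in Klf9 +/+ replicate 2, the order that most of the 10 genes had. Over the 6 samples it was highest in Klf9 +/+ replicate 3 and near its lowest in Klf9 f/f replicate 2. In YTa22, 6 of the 15 choroid plexus genes, Ttr among them, had the order of most of the 10 genes (9.40% of all genes tested). The 14 astrocyte genes had a fitted level above Klf9 +/+ in 14 of 14 and were called higher in 5 of 14 (background 1.82%), with summed levels of 7915 to 10470 CPM in Klf9 +/+ and 10630 to 11480 CPM in Klf9 f/f. Within YTa22 the mean log2 CPM of the astrocyte list ran opposite to the lineage genes, at 8.48 in Klf9 f/f replicate 1, 8.11 in Klf9 +/+ replicate 1, 7.92 in Klf9 f/f replicate 2 and 7.82 in Klf9 +/+ replicate 2. The means of the radial glia and mature granule neuron lists fell over these samples in the same order.

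With the mean choroid plexus level as a covariate, 8 of the 10 genes had the higher fitted level in Klf9 f/f and Neurod4 was at -0.09 (edgeR, unadjusted p = 0.860). With the mean astrocyte level as a covariate, 7 of the 10 were higher and Neurod4 was at -0.21 (edgeR, unadjusted p = 0.361). Both Klf9 f/f samples of YTa22 lay below both Klf9 +/+ samples in mean choroid plexus level, so that the choroid plexus covariate and the genotype are hard to separate in 6 samples. The astrocyte covariate has the same limit, since 14 of 14 astrocyte genes had the higher fitted level in Klf9 f/f. Its mean also ran opposite to the lineage genes within YTa22. With the mean mature granule neuron level as a covariate, 10 of the 10 stayed lower and Neurod4 was at -0.51 (edgeR, unadjusted p = 0.00578). In YTa22 the mean of this list fell from Klf9 f/f replicate 1 (5.52) to Klf9 +/+ replicate 2 (5.15), opposite to the lineage genes. The standard error of Dcx was 0.14 in that fit, against 0.41 without the covariate. The small p-value of Neurod4 there is thus not a separate check of its difference.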

How the data were processed

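Ribosome-bound RNA of 6 samples was sequenced, 3 of each genotype. By the study's methods and the labels, the authors aligned reads to mm9 with STAR, made unstranded gene counts with HTSeq, and deposited raw counts. The overlap mode of HTSeq is not given in the sources used here. The 5 summary lines of each file were left out. Genes were named from GENCODE M1, leaving 415 of 37620 without a name, and Sox4 was read from its longer model, since a second model inside it had 0 counts.

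Genes over 1 CPM in at least 1 sample (15056) were scaled by TMM, and the quasi-likelihood F-test (glmQLFTest) was run in edgeR 4.0.16 (R 4.3.3) with library series as a term beside genotype (3 residual degrees of freedom, biological coefficient of variation 0.198). The call was 1.2-fold with an unadjusted p under 0.05, after the study's methods, or, as a stricter call, an adjusted p under 0.05 by Benjamini-Hochberg. A prior count of 2 entered log2 CPM. Genes named are the 10, Klf9, list genes that were called, and up to 2 abundant genes of lists without calls. Ttr was named after its values were seen. The 10 genes and the lists were chosen with earlier results of these data known. On simulated data for this genotype comparison (14849 genes, 198 changed by 1 on the log2 scale), 94.9% of changed genes passed the unadjusted call and 70.7% the adjusted one, and 4.65% of genes passed the call with no change simulated. The changed genes were drawn at random from all genes tested. Most of the 10 genes spread more widely than that, so these shares do not give the power for the 10.

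The 10 genes held 697 to 44306 counts per sample, so counting error was small beside the spread between samples. Alternatives were other size factors, DESeq2 1.42.0, the likelihood-ratio test, other filters, samples left out, YTa22 alone, no series term and covariates for 3 marker lists. Promoters came from RefSeq tables. Figures were drawn with matplotlib 3.10.9.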

Additional observations from a re-analysis of the deposited data

How the results depend on the processing

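Under DESeq2's size factors in edgeR, DESeq2, the likelihood-ratio test, the stricter filter and the fit without a series term, the 10 genes kept their direction and Neurod4 was the only gene called. Leaving out each sample in turn gave ranges of -0.54 to 0.002 for Eomes, -0.14 to 0.035 for Neurog2, -1.07 to 0.13 for Neurod1, -0.83 to 0.13 for Igfbpl1, -0.53 to 0.19 for Sox4 and -0.58 to 0.081 for Prox1. The count of the 10 called lower ranged from 0 to 2, where 2.61% to 5.65% of genes were called in either direction. The count differing between series at an adjusted p under 0.05 ranged from 0 to 2. For this count and the later counts between series, the share of all genes in the same fit was not counted. That share was 29.5% in the report's fit, so these counts cannot be set against a background. Without the 2 samples named in the report together, the log2 fold change was 0.17 for Eomes, 0.40 for Neurod1, 0.47 for Igfbpl1, 0.43 for Sox4, 0.042 for Sox11, 0.11 for Dcx, 0.20 for Prox1 and 0.25 for Calb2, the median was 0.18, 0 genes were called lower and 2 higher, and 4 differed between series. With the choroid plexus covariate it was 0.22 for Eomes, 1.16 for Neurod1, 0.48 for Igfbpl1, 0.53 for Sox4, 0.195 for Sox11, 0.21 for Dcx, 0.51 for Prox1 and 0.53 for Calb2, with 0 of the 10 genes called (6.44% of all genes tested). With the astrocyte covariate it was 0.19 for Eomes, 0.017 for Neurog2, 0.29 for Neurod1, 0.33 for Igfbpl1, 0.44 for Sox4, 0.037 for Prox1 and 0.225 for Calb2, with 0 called lower (5.07% of all genes tested were called in either direction). In YTa22 alone Neurog2 was at 0.017 and 2 of the 10 were called lower, where 2.5% of genes were called in either direction. With the mature granule neuron covariate 2 were also called lower, where 6.51% of genes were called in either direction. In both cases these were Neurod4 and Dcx. Without a filter on low counts, 6 of the 10 were called lower (Neurod1, Neurod4, Igfbpl1, Dcx, Prox1 and Calb2), 4 passed an adjusted p under 0.05, as did 334 of 25153 genes, and 2 differed between series, although their fold changes hardly moved. The standard errors of the 10 lay between 0.159 and 0.178 in that fit, against 0.146 to 0.498 in the report's fit. Why the errors became so alike was not tested. With CPM by library size alone, 0 of the 10 lay below Klf9 +/+ in both series. Over all genes, 650 were called in the report's fit, 1439 (5.72%) without a filter, 213 without a series term, 403 without Klf9 f/f replicate 3, 385 without Klf9 +/+ replicate 3, 365 in YTa22 alone, 1198 without the 2 samples and 980 with the mature granule neuron covariate. No paired analysis was possible because the labels give no replicate numbers that the genotypes share. The results rest on 3 samples against 3, with 1 against 1 in YTa32.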

Other observations

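Of 8 genes tested that hold back the neurogenic program, 0 were called, where 4.32% of all genes tested were, and the median log2 fold change was 0.07. Id4, an inhibitor of basic helix-loop-helix factors that is high in stem cells, stood at 456.8, 460.6 and 521.4 CPM in Klf9 +/+ and, in Klf9 f/f, at 521.3, 478.6 and 555.6 CPM. Id2, of the same family, was the repressor with the order of the lineage genes in YTa22, from 465.5 CPM in Klf9 f/f replicate 1 to 827.1 CPM in Klf9 +/+ replicate 2. Of 11 radial glia genes tested, 1 was called higher, Gfap, the intermediate filament of stem cells and astrocytes, with a log2 fold change of 0.43 (standard error 0.18), and the median of the list was 0.15.

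Among the oligodendrocyte lineage genes, 2 of 10 were called higher in Klf9 f/f (background 1.82%), Cnp (log2 fold change 0.41, standard error 0.13), a myelin enzyme, and Olig1 (0.51, standard error 0.17), a lineage transcription factor, while 5 of the 10 were lower by fit. Of 8 microglial genes 0 were called. Vascular and meningeal genes were called lower in 6 of 16 and ependymal genes in 3 of 8 (background 2.50%), the medians of the lists being -0.94 and -0.39 on the log2 scale. Their part in the values of the lineage genes was not tested.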
